A study of Homo sapiens with 12 samples.

Results

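The comparison described here is the loss of OGDH in A375 cells that were kept in glucose. It compares 6 of the 12 libraries of the series: the 3 titled Ctrl and the 3 titled OGDH KO without any mention of starvation. A375 is an established human melanoma cell line. The titles call the altered cells KO, whereas the text of the series speaks of a knockdown, so they are called OGDH-depleted cells here. The labels give neither the reagent nor whether the cells are 1 clone or a pool, and they do not name the control treatment. The other 6 libraries are the same 2 kinds of cells after 5 h without glucose, and they also enter the test's estimate of spread. RNA of bulk cultures was taken with Trizol and sequenced, and the values are counts of fragments per gene name. Whether the 3 libraries within each group are separate cultures is not stated by the labels. Each p-value then covers only how these samples spread, and that spread may be technical.

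OGDH is the first enzyme, E1, of the complex that oxidises 2-oxoglutarate. In the mitochondrial matrix this complex turns 2-oxoglutarate into succinyl-CoA, which is a committed step of the tricarboxylic acid cycle and the entry point for carbon from glutamine. DLST supplies the E2 subunit, DLD the E3 subunit that is shared with the pyruvate and branched-chain complexes, and MRPS36 a small adaptor. 2-oxoglutarate is also a co-substrate of dioxygenases that demethylate histones and DNA or hydroxylate HIF1A, and it is the partner of glutamate in transamination.

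The 6 libraries held 21556273 to 24766012 counted fragments. Of 61209 gene names, 18526 passed a filter on low counts and were tested. A gene is called when the adjusted p of edgeR's quasi-likelihood test is under 0.05. Levels are in CPM, the counts per 1000000 counted fragments, after scaling of the libraries, except for the cell type markers and the summed levels of lists, which are CPM before that scaling. Levels with ± are the mean and SD of 3 libraries, and log2 fold changes with ± are given with their SE. Control replicate 2 stood apart from the other libraries. It lay alone on the first principal component of the 6 libraries, which held 50.4% of the variance. Genes of low GC content were higher in it than in the other control libraries, with a median log2 deviation of 0.51 in the fifth of genes lowest in GC and of -0.55 in the fifth highest in GC. The same medians were within -0.01 and 0.02 in the OGDH-depleted libraries. Mitochondrially encoded genes took 14.6% of its counts, against 4.97% to 6.98% in the other 5. Over genes, the log2 fold change of OGDH loss had a Spearman correlation with GC content of 0.40 when all 6 libraries were used and of -0.01 without control replicate 2. This is a description over 15166 genes with a GC value, which are not independent replicates. For that reason, counts of called members of a list are also given without it wherever they differed. The other control libraries and the depleted libraries correlated at 0.993 to 0.994 within their group.

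**Figure D1:**
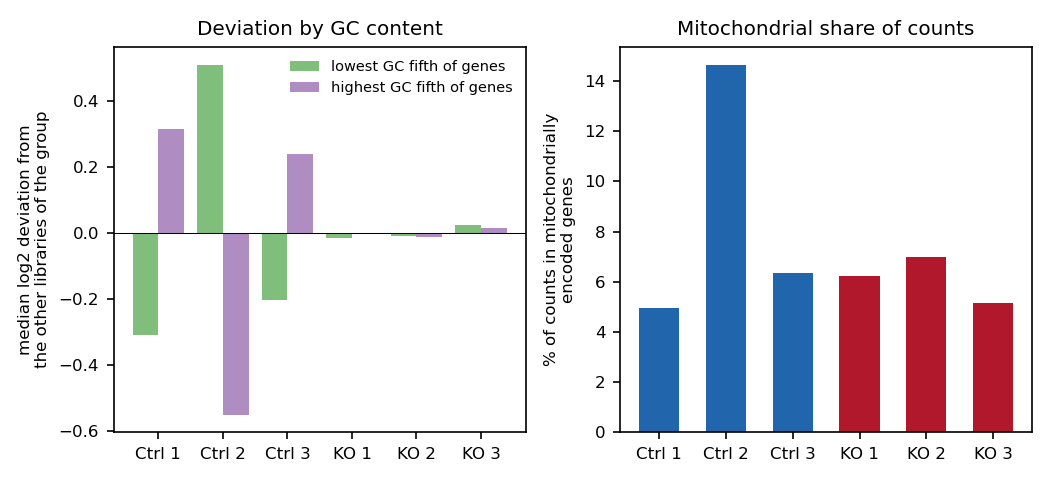
Left, the median log2 deviation of each of the 6 libraries from the other libraries of its group, for the fifth of genes lowest and the fifth highest in GC content. Right, the percentage of counts in mitochondrially encoded genes. Control replicate 2 departs in both panels, with bars of 0.51 and -0.55 on the left and 14.6% on the right.

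SOX10, the transcription factor that defines the neural crest and melanocyte lineage, had 598 to 703 CPM, and MITF, the melanocyte regulator that acts with it, had 25.4 to 38.3 CPM. The pigment genes stood at or near 0, since TYR had 0 counts in the 6 libraries, MLANA had at most 1.53 CPM and PMEL at most 1.67 CPM. Of the markers of other cell types, 4 of 8 fibroblast, 4 of 8 epithelial, 5 of 8 endothelial and 3 of 10 immune genes passed the filter. PTPRC, which marks blood cells, had at most 0.13 CPM. KRT18 and KRT8, keratins that melanoma lines can also express, led the epithelial list at 293 to 325 and 49.7 to 111 CPM, and CLDN4 had 11.6 to 25.9 CPM. In the endothelial list TIE1 had 9.81 to 23.4 CPM and ESAM 4.12 to 7.19 CPM. The summed level of the immune list was 3.02 to 5.78 CPM in control libraries and 2.09 to 3.19 CPM in depleted libraries. That of the fibroblast list was 8.29 to 11.5 CPM and 5.71 to 7.23 CPM, and that of the endothelial list 18.6 to 31.7 CPM and 30.0 to 34.5 CPM. ITGAM was the 1 member of these 4 lists that was called, at a log2 fold change of -1.52 ± 0.28 (SE, adjusted p = 0.016, edgeR quasi-likelihood test), from levels of 1.21 to 2.18 CPM after scaling in control libraries. Its call did not hold when control replicate 1 or 3 or any depleted replicate was left out, and the adjusted p reached 0.085. In bulk RNA, fewer cells of a type and less RNA per cell cannot be told apart.

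OGDH itself was lower in each depleted library. It had 156, 142 and 166 CPM in control replicates 1 to 3 and 38.1, 45.1 and 36.3 CPM in the depleted replicates. The groups were far apart, and the mean fell from 154 ± 11.9 to 39.8 ± 4.68 CPM (n = 3 each), which left 25.8% of the control level. The log2 fold change was -1.96 ± 0.10 (SE, adjusted p = 8.6e-06, edgeR quasi-likelihood test), and it lay between -2.05 and -1.89 with each library left out in turn. The counts do not say how much full-length message or protein remained.

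With glucose present, 563 of the 18526 tested genes were called, which is 3.04%. Of these, 294 were higher in OGDH-depleted cells (1.59% of tested genes) and 269 were lower (1.45%). Most of the changes were small: the median absolute log2 fold change of the called genes was 0.72, and 67 of the higher and 77 of the lower genes changed by at least 2-fold. Over all tested genes the median log2 fold change was -0.01 and the median SE 0.21. Each called gene had control and depleted libraries that did not overlap, and the same held for 27% of all tested genes (14.2% higher and 12.9% lower in depleted libraries). A smaller set of 28 genes passed a test against a change of 1.5-fold.

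The number of calls depended on single libraries. Leaving out control replicate 2 gave 397 calls and retained 339 of the 563. Leaving out control replicate 1 or 3 gave 288 and 238 calls, and leaving out depleted replicate 1, 2 or 3 gave 172, 193 and 224. A group of 155 calls, 98 higher and 57 lower, held in all 6 of these fits, and these are called stable below. With only the 6 compared libraries in the model, 215 genes were called, and 208 of these were among the 563.

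**Figure D2:**
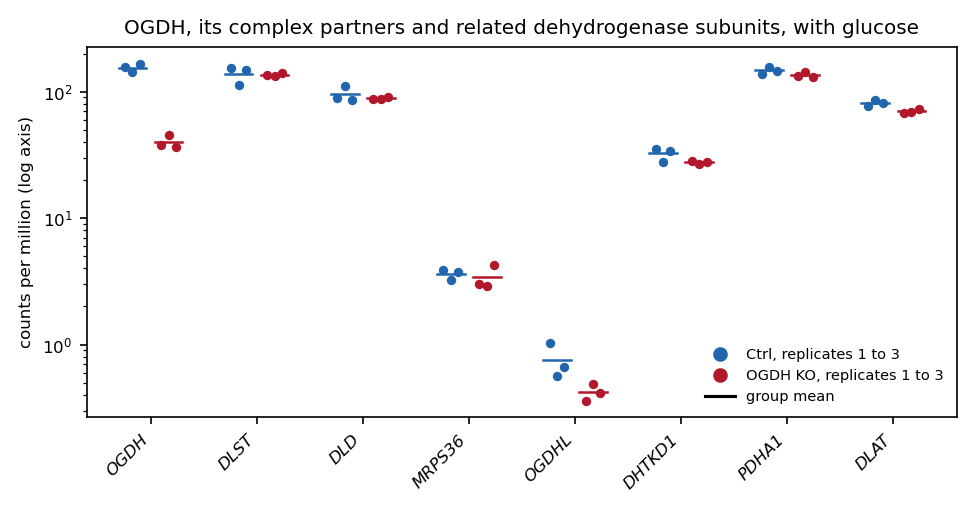
Level of OGDH, its complex partners and related dehydrogenase subunits in each library, in CPM on a log axis, with a line at each group mean. OGDH separates the groups, at 142 to 166 CPM in control and 36.3 to 45.1 CPM in depleted libraries, whereas DLST, DLD and MRPS36 overlap.

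The other subunits of the complex were not called. DLST had 139 ± 23.0 CPM in control and 136 ± 3.59 CPM in OGDH-depleted cells, for a log2 fold change of -0.03 ± 0.17 (SE). DLD gave -0.12 ± 0.12 and MRPS36 -0.10 ± 0.21. Per kilobase of exon, OGDH and DLST had similar levels in control cells, at 29.7 and 30.5 CPM per kb, and in depleted cells OGDH had 7.65 CPM per kb. The paralog OGDHL, which can replace OGDH in some tissues, stood at 0.13 CPM per kb in control cells and 0.07 CPM per kb in depleted cells. Its log2 fold change of -0.85 ± 0.32 was not called (adjusted p = 0.21, edgeR quasi-likelihood test), and no depleted library exceeded a control library. DHTKD1, the E1 subunit for 2-oxoadipate, gave -0.23 ± 0.15 and was not called.

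The list of 2-oxoacid dehydrogenases, their kinases, phosphatases and lipoylation enzymes had 23 tested members, and OGDH was the 1 called by edgeR. The median of the 23 was -0.12, and 18 were negative. By edgeR's quasi-likelihood test 9 of the 23 had an unadjusted p under 0.05, against 2967 of all 18526 genes. DESeq2 called 4, and with an offset for GC content 1 was higher and 3 were lower. For the pyruvate dehydrogenase subunits the values were -0.12 for PDHA1, -0.12 for PDHB, -0.22 for DLAT and -0.11 for PDHX. The branched-chain subunits BCKDHB and DBT gave -0.29 and -0.10. Among the regulators, which switch these complexes off or on by phosphorylation, PDK1, PDK3 and PDK4 gave -0.34, -0.21 and -0.63, PDK2 and BCKDK gave 0.33 each, PDP1 gave -0.32, PDP2 0.27 and PPM1K 0.25. The lipoylation enzymes LIAS, LIPT1 and LIPT2, which together make and attach the cofactor that the E2 subunits need, gave -0.31, 0.23 and -0.66. None of these passed the threshold, and the smallest adjusted p among them was 0.098 for PDP1 by edgeR's quasi-likelihood test.

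Of 26 tested genes of the tricarboxylic acid cycle and anaplerosis, 0 were called by edgeR's quasi-likelihood test, 4 had an unadjusted p under 0.05 and DESeq2 called 1. Their median was -0.04. MDH2 and CS, which make oxaloacetate and citrate, gave 0.09 ± 0.10 and -0.11 ± 0.09 (SE) at 551 and 271 CPM in control cells. The 54 nuclear-encoded respiratory chain subunits had 0 calls by edgeR, 1 by DESeq2, 2 members with an unadjusted p under 0.05 and a median of 0.00. Of 25 genes of glycolysis and glucose uptake 1 was called, 4% against 3.04% of all tested genes, and 2 were lower without control replicate 2. The called gene was LDHA, which reduces pyruvate to lactate. It fell from 1349 ± 39.2 to 1009 ± 31.1 CPM, a log2 fold change of -0.42 ± 0.08 (SE, adjusted p = 0.022). That call held only when control replicate 2 was the library left out. The 13 mitochondrially encoded mRNAs had a median of -0.61 with all libraries and of 0.12 without control replicate 2, and 0 were called either way. By edgeR 0 of the 13 had an unadjusted p under 0.05, and DESeq2 called 0.

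Of 42 tested dioxygenases that use 2-oxoglutarate, 1 was higher and 2 were lower, against 1.59% and 1.45% of all tested genes. Without control replicate 2 the counts were 0 and 2, and the median with all libraries was 0.01. KDM3A, which demethylates histone H3, had 67.3, 76.6 and 68.5 CPM in control and 49.0, 46.4 and 44.3 CPM in depleted libraries, for -0.60 ± 0.09 (SE, adjusted p = 0.0042, edgeR quasi-likelihood test). Its call was stable. TET1, which oxidises 5-methylcytosine in DNA, had 4.76, 9.99 and 6.15 CPM in control and 2.36, 2.91 and 2.73 CPM in depleted libraries. Control replicate 2 held the highest value, and the log2 fold change was -1.38 with it and -1.03 without it (adjusted p = 0.023 and 0.049). RIOX1, a ribosomal oxygenase, rose from 15.8 ± 2.17 to 29.4 ± 1.21 CPM (0.90, adjusted p = 0.026). Leaving out any 1 library ended the call of RIOX1 (adjusted p up to 0.11), and that of TET1 ended without control replicate 3 or any 1 depleted replicate (adjusted p up to 0.12). KDM4A, next by p, gave 0.50 ± 0.16 and was not called.

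**Figure D3:**
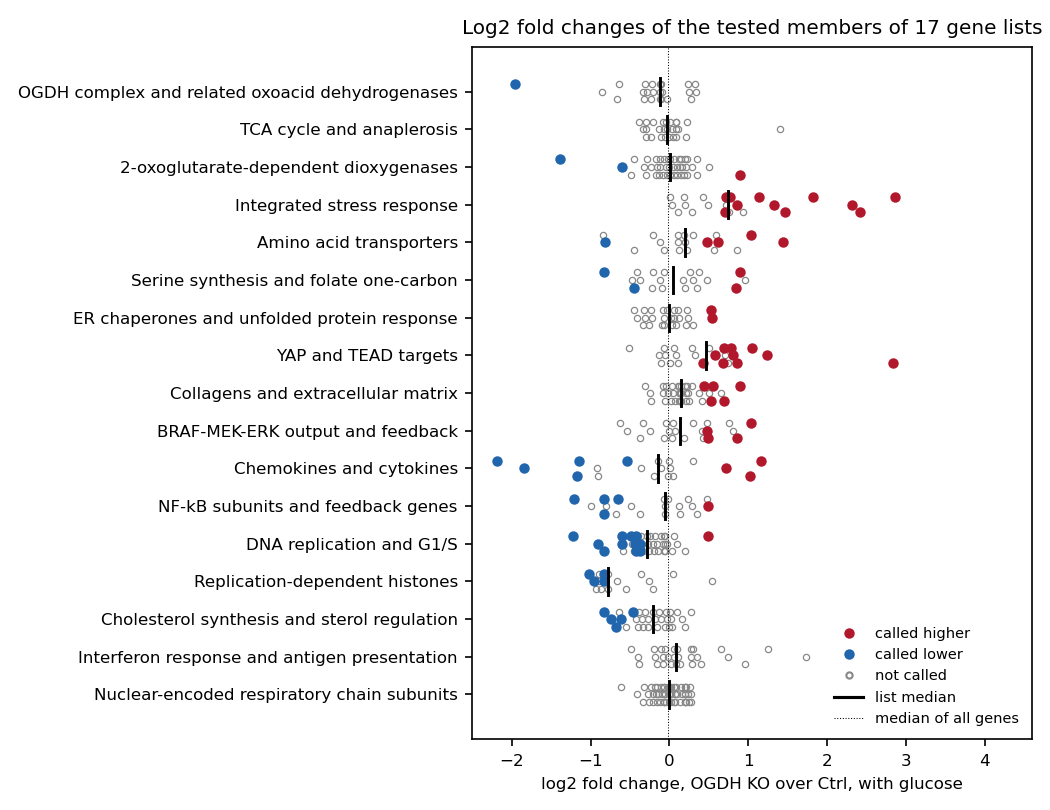
Log2 fold change of each tested member of 17 gene lists, with filled points for called genes, open points for genes not called and a bar at the list median. Integrated stress response genes and YAP and TEAD targets have medians of 0.74 and 0.46, replication-dependent histones a median of -0.78, and the list with OGDH 1 called member.

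The list of integrated stress response genes had the most members called higher of the 42 lists. Of 22 tested members 11 were higher and 0 lower, against 1.59% of all tested genes called higher, and all 22 log2 fold changes were above 0 with a median of 0.74 (21 were above 0 with upper-quartile scaling, with an offset for GC content, without control replicate 1 or 2, without depleted replicate 3 and without the 3 libraries farthest from their groups). Without control replicate 2, 9 were higher and the median was 0.68. In this response, kinases that sense amino acid shortage, unfolded protein or mitochondrial stress phosphorylate the initiation factor eIF2, which lets the message of the transcription factor ATF4 be translated. ATF4 then acts with CEBPB, CEBPG on genes for amino acid supply and stress hormones.

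INHBE, which encodes a subunit of the secreted activin E, had the largest increase of all genes that met the naming rule. It had 0.991, 0.303 and 0.795 CPM in control and 5.00, 5.03 and 5.30 CPM in depleted libraries. ADM2, a peptide hormone, had 1.55, 0.779 and 1.55 CPM in control and 7.53, 7.02 and 6.27 CPM in depleted libraries. CHAC1, which degrades glutathione, had 13.7, 6.10 and 12.5 CPM in control and 58.0, 49.5 and 53.1 CPM in depleted libraries. In all 3 genes the depleted libraries lay close together and above each control library, and control replicate 2 was the lowest. The folds were 7.34, 5.37 and 4.98, and the log2 fold changes 2.86 ± 0.30, 2.42 ± 0.26 and 2.31 ± 0.35 (SE, adjusted p = 0.00071, 0.00073 and 0.005, edgeR quasi-likelihood test). Without control replicate 2 they were 2.51, 2.16 and 2.03.

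STC2, a secreted glycoprotein, rose from 38.7 ± 4.26 to 107 ± 3.26 CPM (1.47 ± 0.13, SE). JDP2, a leucine zipper repressor of the AP-1 family, rose by 1.82 ± 0.18, and GDF15, a cytokine released by stressed cells, rose by 1.32 ± 0.18. CEBPG and CEBPB, partners of ATF4, rose by 0.76 and 0.71. CTH, which makes cysteine from cystathionine, rose by 0.85. PPP1R15A, the phosphatase subunit that reverses eIF2 phosphorylation, rose by 0.72, and TRIB3, a pseudokinase induced by ATF4, by 1.13. The calls of INHBE, ADM2, CHAC1, STC2, JDP2, GDF15, CEBPG and CTH were stable. TRIB3 and CEBPB lost theirs when any 1 library was left out (adjusted p up to 0.15 and 0.2), and PPP1R15A without depleted replicate 1 or 2 (adjusted p up to 0.068), all by edgeR's quasi-likelihood test. ATF4 itself, which is set mainly by translation, went from 411 ± 69.0 to 576 ± 9.76 CPM and was not called (0.49 ± 0.14, adjusted p = 0.1). SESN2 gave 0.93 ± 0.23 (adjusted p = 0.054). DDIT3, the factor tied to strong or lasting stress, had overlapping groups, at 13.2 ± 1.93 and 15.1 ± 1.95 CPM.

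The promoter of CHAC1 is shown because it is the 1 of 19 promoters of called stress response and amino acid genes that held an ATF4-type element in the 250 bases before the start of the gene. The letters searched were TGANGCAA on either strand, and 2.18% of 11816 promoters of tested genes held them. The sequence is from RefSeq, build GRCh38.p14, chr15:40953221-40953470, plus strand, and capitals mark the match, which is on the other strand. The match is a description of these letters and shows no binding.
CHAC1: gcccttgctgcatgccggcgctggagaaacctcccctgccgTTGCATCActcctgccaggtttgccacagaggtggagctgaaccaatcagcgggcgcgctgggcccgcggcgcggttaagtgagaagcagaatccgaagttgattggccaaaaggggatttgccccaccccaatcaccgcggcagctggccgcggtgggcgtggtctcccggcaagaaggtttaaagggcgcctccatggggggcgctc

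Amino acid genes outside the stress list gave a mixed picture. Of 20 transporters 4 were higher and 1 lower, against 1.59% and 1.45% of all tested genes. Without control replicate 2 the counts were the same. SLC1A4, which carries serine, alanine and cysteine, had 12.5, 10.8 and 11.4 CPM in control and 31.8, 31.8 and 30.7 CPM in depleted libraries, a log2 fold change of 1.44 ± 0.10 (SE, adjusted p = 6.2e-05, edgeR quasi-likelihood test). SLC6A9, a glycine transporter, rose by 1.04 ± 0.14, the cationic transporter SLC7A1 by 0.48 and SLC43A1, which carries large neutral amino acids, by 0.61. The glutamate and aspartate transporter SLC1A3 fell from 22.0 ± 2.45 to 12.4 ± 0.791 CPM (-0.82 ± 0.12, adjusted p = 0.0048). SLC43A1 was not called when any 1 library was left out (adjusted p up to 0.16), nor SLC7A1 without control replicate 1 or any 1 depleted replicate (adjusted p up to 0.1).

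Of 18 tested genes of glutamine, glutamate and proline metabolism 2 were higher (1 without control replicate 2) and 0 lower. The shares over all tested genes were 1.59% higher and 1.45% lower, here and for the serine and folate genes below. ASNS, which makes asparagine with nitrogen from glutamine, rose from 5.20 ± 0.785 to 13.3 ± 1.58 CPM (1.36 ± 0.18, SE, adjusted p = 0.0027, edgeR quasi-likelihood test). GPT2, the mitochondrial aminotransferase that produces 2-oxoglutarate and alanine, rose by 0.89, a call lost when any 1 library was left out (adjusted p up to 0.17). PYCR1, the last step of proline synthesis, went from 50.7 ± 15.4 to 102 ± 6.16 CPM and OAT gave -0.35, and neither was called (adjusted p = 0.12 and 0.065). Of 20 genes of serine synthesis and folate metabolism 2 were higher and 2 lower. MTHFD2, the mitochondrial folate dehydrogenase, had 179, 177 and 177 CPM in control and 339, 321 and 332 CPM in depleted libraries (0.90 ± 0.08, adjusted p = 0.00028). PSAT1, an aminotransferase that also produces 2-oxoglutarate, rose by 0.84 ± 0.11. Among the lower members, the serine carrier SFXN1 fell by 0.45 and lost its call when any 1 library was left out (adjusted p up to 0.12).

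Of 23 cytosolic aminoacyl-tRNA synthetases, which charge tRNAs with amino acids, 2 were higher and 0 lower with a median of 0.20. The share of all tested genes called higher was 1.59%. SARS1 rose by 0.67 ± 0.10 and WARS1 by 0.60 ± 0.11 (SE, adjusted p = 0.0054 and 0.013, edgeR quasi-likelihood test). WARS1 was not called without control replicate 1 or 3 or without depleted replicate 1 or 2 (adjusted p up to 0.073). AARS1 and MARS1 gave 0.49 and 0.54 and were not called. The 19 tested synthetases of mitochondria had 0 calls by edgeR and by DESeq2, 1 member with an unadjusted p under 0.05 and a median of -0.05. Of 20 mitochondrial chaperones and proteases, 0 were called by edgeR and 1 by DESeq2, 1 had an unadjusted p under 0.05 and the median was -0.01.

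Of the endoplasmic reticulum list and of the antioxidant list 7.69% each were called, against 3.04% of all tested genes. DESeq2 called 6 in each list, and 9 and 7 members had an unadjusted p under 0.05 by edgeR's quasi-likelihood test. The antioxidant list had a median of 0.26, with 19 log2 fold changes above 0 and 7 below. Of 26 genes of the unfolded protein response of the endoplasmic reticulum 2 were higher (1 without control replicate 2), 0 were lower, and the median was -0.01. XBP1, a transcription factor of that response, rose by 0.55 ± 0.08 (SE, adjusted p = 0.0041, edgeR quasi-likelihood test), and HERPUD1, which aids degradation at the reticulum, rose by 0.53. The chaperone genes CALR and DNAJB11 gave -0.34 and -0.32 (adjusted p = 0.057 and 0.064). HERPUD1 lost its call when any 1 library was left out (adjusted p up to 0.18). Of 26 NRF2 and glutathione genes 2 were higher (3 without control replicate 2), of which 1 is CTH. The other, TXNRD1 (thioredoxin reductase), rose from 387 ± 19.4 to 586 ± 21.9 CPM. CBS, which makes cystathionine, had 1.78, 0.865 and 2.34 CPM in control and 5.80, 8.21 and 6.05 CPM in depleted libraries. The groups of CBS did not overlap, but the SE of its log2 fold change of 2.0 was 0.53 and it was not called (adjusted p = 0.072). OSGIN1 gave 1.02 ± 0.26 (adjusted p = 0.062).

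Targets of YAP and TEAD came next by members called higher. Of 24 tested members 10 were higher and 0 lower with a median of 0.46, against 1.59% of all tested genes called higher, and without control replicate 2 the counts were 8 and 0 with a median of 0.42. YAP and TAZ are coactivators that enter the nucleus when the Hippo kinases are off, for example on stiff matrix, and bind DNA through TEAD factors.

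ANKRD1, a nuclear ankyrin repeat protein, had 7.10, 8.91 and 8.16 CPM in control and 63.6, 56.3 and 52.5 CPM in depleted libraries. This was a 7.13-fold rise, with a log2 fold change of 2.83 ± 0.16 (SE, adjusted p = 8.6e-06, edgeR quasi-likelihood test). CCN1, a matricellular protein, had 154, 147 and 171 CPM in control and 409.6, 383 and 319.6 CPM in depleted libraries (1.24 ± 0.12). Its relative CCN2 rose from 72.0 ± 6.31 to 126 ± 18.4 CPM (0.81 ± 0.12). In CPM, and at higher means, the depleted libraries of all 3 genes spread more than the control libraries, and no library crossed between groups. Relative to the mean, the spread of ANKRD1 was not larger in depleted libraries. AXL, a receptor tyrosine kinase, rose by 0.79 ± 0.12, AJUBA, a LIM protein that binds the LATS kinases, by 1.05 ± 0.15, and DLC1, a GTPase-activating protein, by 0.68 ± 0.08. LATS2, a Hippo kinase, rose by 0.69 ± 0.11, AMOTL2 by 0.86, TEAD1 by 0.58 and F3 (tissue factor) by 0.42. The calls of ANKRD1, CCN1, CCN2, AXL, AJUBA, DLC1 and LATS2 were stable. Those of AMOTL2 and F3 were lost when any 1 library was left out (adjusted p up to 0.12 and 0.23). TEAD1 was called only when control replicate 2 was the library left out (adjusted p up to 0.15).

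The promoters of ANKRD1 and CCN2 are shown because they are the 2 of 7 promoters of the called YAP and TEAD genes, 28.6%, that held the TEAD element GGAATG on either strand within 250 bases before the start. Of 11816 promoters 9.65% held it. The 7 genes come from a list of YAP and TEAD targets, and its members that were not called were not counted separately. The share can therefore not be read as a trait of the called genes. Both are from RefSeq, build GRCh38.p14, minus strand, at chr10:90921088-90921337 and chr6:131951373-131951622. Capitals mark 2 matches in ANKRD1 and 3 in CCN2.
ANKRD1: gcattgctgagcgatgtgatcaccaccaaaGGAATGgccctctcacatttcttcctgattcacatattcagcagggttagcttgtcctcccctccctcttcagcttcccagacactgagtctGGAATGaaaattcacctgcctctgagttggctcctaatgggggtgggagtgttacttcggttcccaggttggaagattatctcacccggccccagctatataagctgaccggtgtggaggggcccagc
CCN2: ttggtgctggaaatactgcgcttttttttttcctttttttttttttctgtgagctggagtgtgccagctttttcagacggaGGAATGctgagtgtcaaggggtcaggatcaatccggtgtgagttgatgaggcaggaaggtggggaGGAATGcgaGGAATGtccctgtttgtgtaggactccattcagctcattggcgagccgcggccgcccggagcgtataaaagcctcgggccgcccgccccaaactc

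The matrix and dedifferentiation lists share members with the YAP and TEAD list. Of 37 collagen and extracellular matrix genes 5 were higher and 0 lower, with 4 and 0 without control replicate 2. The shares over all tested genes were 1.59% higher and 1.45% lower, here and for the dedifferentiation and melanocyte lists below. COL6A3 rose from 169.7 ± 15 to 274 ± 5.18 CPM (0.69 ± 0.10, SE, adjusted p = 0.005, edgeR quasi-likelihood test). THBS1 (thrombospondin), BGN (biglycan), COL4A5 and TIMP3 rose by 0.55, 0.89, 0.44 and 0.52. THBS1 and COL4A5 were lost without any 1 library (adjusted p up to 0.14 and 0.18), and BGN and TIMP3 when any 1 library other than control replicate 2 was left out (adjusted p up to 0.12 and 0.21). Of 21 genes tied to a dedifferentiated melanoma state 4 were higher (3 without control replicate 2) and 0 lower with a median of -0.01, among them AXL, THBS1 and TEAD1. In the melanocyte list of 16 tested genes 0 were higher and 1 lower. That gene is ERBB3, a neuregulin receptor, which fell from 81.0 ± 8.96 to 41.5 ± 2.35 CPM (-0.96 ± 0.14, adjusted p = 0.0041).

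Among 22 genes of BRAF, MEK and ERK output, the pathway that drives A375 cells through mutant BRAF, 4 were higher (3 without control replicate 2) and 0 lower. The shares over all tested genes were 1.59% higher and 1.45% lower, here and for the immediate early factors below. DUSP5, a phosphatase that acts on nuclear ERK, had 47.4, 36.9 and 43.9 CPM in control and 87.6, 86.6 and 88.6 CPM in depleted libraries (1.04 ± 0.11, SE, adjusted p = 0.00082, edgeR quasi-likelihood test). MYC rose from 70.7 ± 2.25 to 128 ± 11.3 CPM (0.86 ± 0.12) and CCND1, the G1 cyclin, by 0.49 ± 0.08. DUSP4 rose by 0.48, a call lost when any 1 library was left out (adjusted p up to 0.17). The median of the list was 0.13. Of 24 immediate early factors 4 were higher (MYC, KLF4, KLF2 and SRF) and 1 was lower, with 3 and 1 without control replicate 2. KLF4 and KLF2, Kruppel-like factors, rose by 0.70 and 0.53, and SRF, serum response factor, rose by 0.58. BTG2, an antiproliferative gene, was the 1 that fell, from 35.8 ± 0.897 to 22.6 ± 0.236 CPM (-0.66 ± 0.09, adjusted p = 0.0027). KLF2 was called only when depleted replicate 3 was the library left out (adjusted p up to 0.18), and SRF was lost without any 1 depleted replicate (adjusted p up to 0.085). With an offset for GC content 2 of the 24 early factors were higher and 2 lower, and their median was -0.09, against 0.08 without the offset.

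Chemokine messages were among the largest decreases, while a few cytokines rose. Of 19 tested chemokines and cytokines 5 were lower and 3 higher, against 1.45% and 1.59% of all genes, and without control replicate 2 the counts were 4 and 2. CCL2, which attracts monocytes, had 21.2, 20.7 and 22.0 CPM in control and 4.96, 5.30 and 3.81 CPM in depleted libraries. CXCL1, a neutrophil chemokine, had 91.7, 90.3 and 89.5 CPM in control and 28.1, 26.1 and 21.4 CPM in depleted libraries. In both genes the control libraries, replicate 2 included, were nearly equal, and the depleted level was 22.0% and 27.8% of control. The log2 fold changes were -2.19 ± 0.15 and -1.85 ± 0.11 (SE, adjusted p = 4.8e-05 and 2.3e-05, edgeR quasi-likelihood test). CXCL3 gave -1.17 ± 0.14 and CXCL2 -1.15 ± 0.22, and CXCL8 fell by 0.54 ± 0.13. CXCL1, CXCL2 and CXCL3 are near-identical neighbours, so fragments that match several of them were left out of the counts. CXCL2 lost its call without control replicate 1 or depleted replicate 1 or 3 (adjusted p up to 0.1), and CXCL8 when any 1 library other than control replicate 3 was left out (adjusted p up to 0.18).

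The cytokines that rose were IL1B, the inflammasome product, IL24 and CXCL16. IL1B had 26.0, 26.2 and 24.4 CPM in control and 54.9, 54.6 and 46.3 CPM in depleted libraries (1.02 ± 0.11, SE, adjusted p = 0.001, edgeR quasi-likelihood test). IL24 rose by 1.16 ± 0.16 and CXCL16 by 0.72, the latter called in none of the 6 fits without 1 library (adjusted p up to 0.12). Of 20 NF-kB subunits and feedback genes 4 were lower and 1 higher, against 1.45% and 1.59% of all tested genes. Without control replicate 2 the counts were 4 and 0. NFKBIA, the inhibitor that holds NF-kB in the cytoplasm and is itself a target of it, fell from 67.7 ± 6.82 to 38.0 ± 2.47 CPM (-0.83 ± 0.12, adjusted p = 0.0044). BCL3, an atypical inhibitor, fell by 0.84 and the deubiquitinase TNFAIP3 fell by 0.65, while BIRC3, a ubiquitin ligase, fell by 1.22. BIRC3 lost its call without depleted replicate 2 or 3 (adjusted p up to 0.057). SOD2, the mitochondrial superoxide dismutase, rose by 0.49 and lost its call when any 1 library was left out (adjusted p up to 0.12). In the interferon and antigen presentation list, 0 of 29 genes were called by edgeR and 2 by DESeq2, 5 had an unadjusted p under 0.05 and the median was 0.08.

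The promoters of CXCL1, CXCL2 and NFKBIA are shown because most of the searched promoters of chemokine and NF-kB genes that fell held a kappaB element. The letters GGG, any 2 bases, TT, any base and CC, searched in that order on either strand in the 250 bases before the start, were found in 6 of 8 promoters (75%) and in 5.98% of 11816 promoters. CXCL8 and BCL3 held no match, and CCL2 was not searched. The 8 genes come from lists of chemokines and of NF-kB subunits and feedback genes. List members that were not called or that rose were not counted separately. The share of 75% can therefore not be read as a trait of the genes that fell, and the same limit holds for each of the 5 searches. Of 5 such searches, 2 more were made in groups that fell: the E2F element TTTNGCGC was in 1 of 7 promoters of replication genes called lower and 2.37% of all promoters, and the sterol element TCACNCCAC in 0 of 7 of sterol and fatty acid genes called lower and 0.855% of all. CXCL1, CXCL2 and CXCL3 arose by duplication, so their matches are not separate observations. The sequences are from RefSeq, build GRCh38.p14, at chr4:73869143-73869392 on the plus strand and at chr4:74099196-74099445 and chr14:35404750-35404999 on the minus strand. Capitals mark the match, which lies at almost the same place in CXCL1 and CXCL2.
CXCL1: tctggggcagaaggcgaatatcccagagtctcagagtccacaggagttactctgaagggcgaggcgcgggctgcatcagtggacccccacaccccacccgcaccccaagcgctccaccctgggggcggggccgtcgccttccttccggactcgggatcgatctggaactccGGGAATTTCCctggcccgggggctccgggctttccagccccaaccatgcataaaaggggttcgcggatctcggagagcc
CXCL2: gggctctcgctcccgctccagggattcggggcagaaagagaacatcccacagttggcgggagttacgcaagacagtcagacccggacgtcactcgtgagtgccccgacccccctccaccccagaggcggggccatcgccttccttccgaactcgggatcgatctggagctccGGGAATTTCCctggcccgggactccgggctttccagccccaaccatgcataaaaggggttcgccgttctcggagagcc
NFKBIA: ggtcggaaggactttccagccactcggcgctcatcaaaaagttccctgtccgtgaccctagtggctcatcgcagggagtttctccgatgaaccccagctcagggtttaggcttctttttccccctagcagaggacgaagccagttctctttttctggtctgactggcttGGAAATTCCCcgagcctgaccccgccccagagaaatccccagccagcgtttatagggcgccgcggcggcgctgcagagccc

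Some genes of DNA replication and the G1 to S transition were lower, by small amounts. Of 43 tested members 11 were lower and 1 higher, against 1.45% of all genes called lower, and 38 had a log2 fold change below 0. The median was -0.28, and without control replicate 2 it was -0.33 with 8 lower and 1 higher. Between 2 and 8 were lower with 1 library left out. With only the 6 compared libraries in the fit 2 were lower and 0 higher. An offset for GC content gave 22 lower and 1 higher, and DESeq2 called 16 in either direction. MCM3, a subunit of the replicative helicase, had 220.2, 183 and 214 CPM in control and 138, 135 and 134 CPM in depleted libraries (-0.60 ± 0.09, SE, adjusted p = 0.0065, edgeR quasi-likelihood test). E2F8, a repressor of the E2F family, fell from 8.21 ± 1.81 to 3.52 ± 0.0796 CPM (-1.22 ± 0.20). These 2 calls were stable. GINS2, another helicase subunit, fell by 0.61, PCNA, the sliding clamp, by 0.38, CCNE2 (cyclin E2) by 0.91 and RRM2, which makes deoxynucleotides, by 0.37. MCM4, CDC6, CDC45 and POLA1, which load or start the replication fork, fell by 0.43, 0.44, 0.43 and 0.49. MCM4, PCNA and RRM2 lost their calls when any 1 library was left out (adjusted p up to 0.16, 0.12 and 0.17), CDC6 and CDC45 in all but the fit without control replicate 2 (up to 0.095 and 0.18), POLA1 and CCNE2 in all but the fit without control replicate 1 (up to 0.17 and 0.11), and GINS2 without depleted replicate 1 or 3 (up to 0.059). The member that was higher is CCND1. Of 32 mitotic genes, 0 were called by edgeR and 3 by DESeq2, 7 had an unadjusted p under 0.05 and the median was -0.20. Of these 32, 29 had a log2 fold change below 0, and 24 did without control replicate 2. With an offset for GC content 5 were called lower.

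Replication-dependent histone genes, which are expressed in S phase and mostly lack a poly(A) tail, had the lowest median of the 42 lists, at -0.78. Of 17 tested members 4 were lower and 0 higher, against 1.45% and 1.59% of all tested genes, and 15 had a log2 fold change below 0. The counts of called members were the same without control replicate 2. H2AC6 had 19.7, 18 and 18.7 CPM in control and 11.2, 9.89 and 10.8 CPM in depleted libraries (-0.83 ± 0.09, SE, adjusted p = 0.001, edgeR quasi-likelihood test), and its call was stable. H2BC5, H2BC12 and H2BC11 fell by 1.02, 0.83 and 0.96, and their calls were lost without depleted replicate 2 or 3, among other single libraries (adjusted p up to 0.1, 0.17 and 0.22). The summed level of the list was 67.8 to 96.4 CPM in control and 45.5 to 52.3 CPM in depleted libraries. Histone genes are near-identical copies, and whether the libraries were selected for poly(A) is not given in the sources used here, so the level of any 1 of them is uncertain.

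Sterol genes were lower in part. Of 31 genes of cholesterol synthesis and its control 5 were lower and 0 higher with a median of -0.21, and 3 were lower without control replicate 2. The share of all tested genes called lower was 1.45%, here and for the fatty acid genes below. INSIG1, which holds the sterol sensor in the endoplasmic reticulum, had 37.7, 38.8 and 36.5 CPM in control and 22.5, 23.1 and 22.3 CPM in depleted libraries (-0.74 ± 0.08, SE, adjusted p = 0.00079, edgeR quasi-likelihood test). STARD4, a sterol carrier, fell by 0.83, and the synthesis enzymes HMGCS1 and IDI1 by 0.46 and 0.68. Of 23 genes of fatty acid synthesis and desaturation 3 were lower, all of them desaturases, and 2 without control replicate 2. SCD fell from 432 ± 7.24 to 303 ± 8.15 CPM (-0.51 ± 0.08, adjusted p = 0.0051), FADS2 by 0.41 and FADS1 by 0.32. INSIG1 and SCD were stable. With only the 6 compared libraries in the fit, 3 of the sterol genes and 0 of the fatty acid genes were called lower, so SCD was not called there. IDI1 and FADS1 lost their calls when any 1 library was left out (adjusted p up to 0.16 and 0.2), HMGCS1 in all but the fit without depleted replicate 3 (up to 0.12), FADS2 in all but the fit without control replicate 2 (up to 0.23), and STARD4 without depleted replicate 1 or 2 (up to 0.08). DGAT1, next by p in the fatty acid list, gave 0.34 and was not called.

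**Figure D4:**
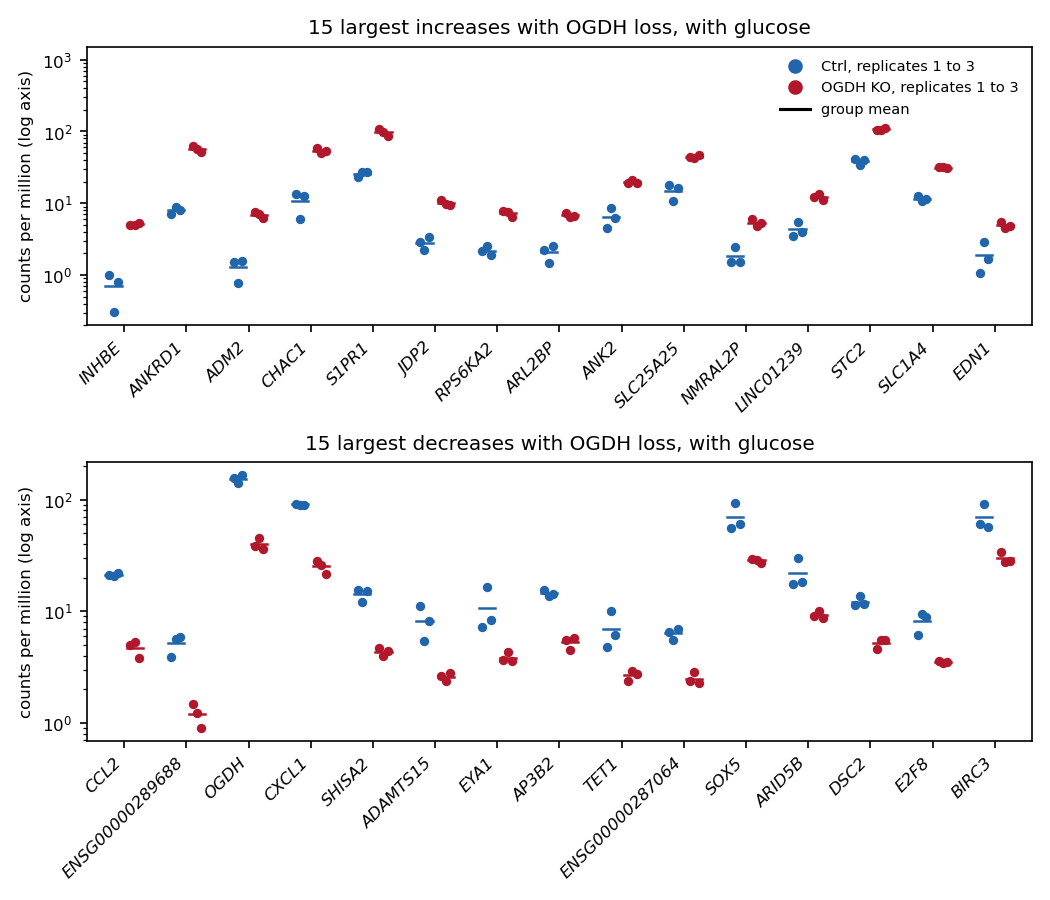
Level of the 15 genes with the largest increases (top) and the 15 with the largest decreases (bottom) in each of the 6 libraries, in CPM on a log axis, with a line at each group mean. The depleted libraries lie together, while the control point farthest from its mean is often replicate 2, as for INHBE, TET1 and EYA1.

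Several of the largest changes belonged to none of the groups above. S1PR1, a receptor for sphingosine 1-phosphate, had 23.3, 26.9 and 27.3 CPM in control and 108, 99.5 and 85.8 CPM in depleted libraries (1.92 ± 0.13, SE, adjusted p = 4.8e-05, edgeR quasi-likelihood test). RPS6KA2, a kinase downstream of ERK, rose from 2.19 ± 0.337 to 7.27 ± 0.658 CPM (1.73 ± 0.16). SLC25A25, a calcium-regulated carrier of ATP-Mg and phosphate in the inner mitochondrial membrane, rose by 1.58 ± 0.27 and was the 1 call among 35 SLC25 carriers. That is 2.86% of these carriers, against 3.04% of all tested genes. ANK2, an ankyrin, rose by 1.62, EDN1, the vasoconstrictor endothelin, by 1.42, ARL2BP, which binds a small GTPase, by 1.70, the pseudogene NMRAL2P by 1.56 and the noncoding RNA LINC01239 by 1.5. ARL2BP was lost when any 1 library was left out (adjusted p up to 0.1), EDN1 in all but the fit without control replicate 2 (up to 0.12), and LINC01239 without control replicate 1 or 3 or depleted replicate 1 or 2 (up to 0.066).

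Among the decreases, SHISA2, a membrane protein that retains receptors in the endoplasmic reticulum, had 15.6, 12.2 and 15.3 CPM in control and 4.64, 3.93 and 4.44 CPM in depleted libraries (-1.73 ± 0.17, SE, adjusted p = 0.00056, edgeR quasi-likelihood test). SOX5, a transcription factor of the neural crest, had 55.8, 93.0 and 60.2 CPM in control and 29.4, 29.1 and 27.3 CPM in depleted libraries. Control replicate 2 held the highest value of SOX5, and the log2 fold change was -1.29 with it and -1.02 without it. EYA1, a phosphatase and coactivator, gave -1.48 with control replicate 2 and -1.03 without it, and was no longer called without it (adjusted p = 0.091). ARID5B, a chromatin factor, likewise went from -1.23 to -0.95 (adjusted p = 0.077). The metalloprotease ADAMTS15 fell by 1.67, the adaptor subunit AP3B2 fell by 1.45 and the desmosomal cadherin DSC2 fell by 1.23. ENSG00000289688 and ENSG00000287064, 2 gene models without a symbol in the table, gave -2.10 and -1.34. SOX5 was lost without any 1 depleted replicate (adjusted p up to 0.058), ADAMTS15 without depleted replicate 1 or 2 (up to 0.068), and EYA1 and ARID5B in all but the fit without control replicate 1 (up to 0.16 and 0.13).

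Further lists differed in their share of calls, against 1.59% of all genes called higher and 1.45% lower. The FOXO and fasting list had 1 higher and 3 lower members, 21.1% of those tested, and the p53 list had 12% called. In the FOXO and fasting list 11 members had an unadjusted p under 0.05 by edgeR's quasi-likelihood test, and DESeq2 called 8. In the FOXO and fasting list of 19 genes, IRS2, an insulin receptor substrate, rose by 0.96, while BCL6 fell by 0.94, CCNG2 fell by 0.84 and SESN3 fell by 1.24. Without control replicate 2 this list had 1 higher and 1 lower. In the p53 list of 25 genes GDF15 rose and SESN1 and BTG2 fell, SESN1 by 0.54. Of 22 apoptosis regulators, 1 of which was higher with all libraries and 2 without control replicate 2, BCL2L1, which protects mitochondria, rose by 0.65 ± 0.08 (SE, adjusted p = 0.002, edgeR quasi-likelihood test) and BIRC3 fell, while BCL2A1 and BCL2 gave 0.99 and 0.26 and were not called. Of 36 lysosome and autophagy genes WIPI1 and CTSB rose, by 0.77 and 0.64 (1 was higher without control replicate 2), and GABARAPL1 and ULK1 gave 0.54 and 0.50 and were not called. Of 30 genes of MYC and ribosome biogenesis MYC and POLR1B, a subunit of RNA polymerase I, rose, the latter by 0.39, while UTP20 and NCL gave -0.40 and -0.44 and were not called. CCNG2 and CTSB were lost when any 1 library was left out (adjusted p up to 0.14 each), SESN3 in all but the fit without control replicate 3 (up to 0.16), POLR1B in all but the fit without control replicate 2 (up to 0.17), and SESN1 without control replicate 1 or any 1 depleted replicate (up to 0.1). Of 24 hypoxia-inducible genes 1 was lower (2 without control replicate 2), and it is KDM3A, described above with the dioxygenases. Among 15 cytosolic heat shock genes and 18 nuclear-retained RNAs 0 were called by edgeR's quasi-likelihood test, DESeq2 called 2 and 1, 3 in each list had an unadjusted p under 0.05, and the medians were 0.05 and -0.01.

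**Figure D5:**
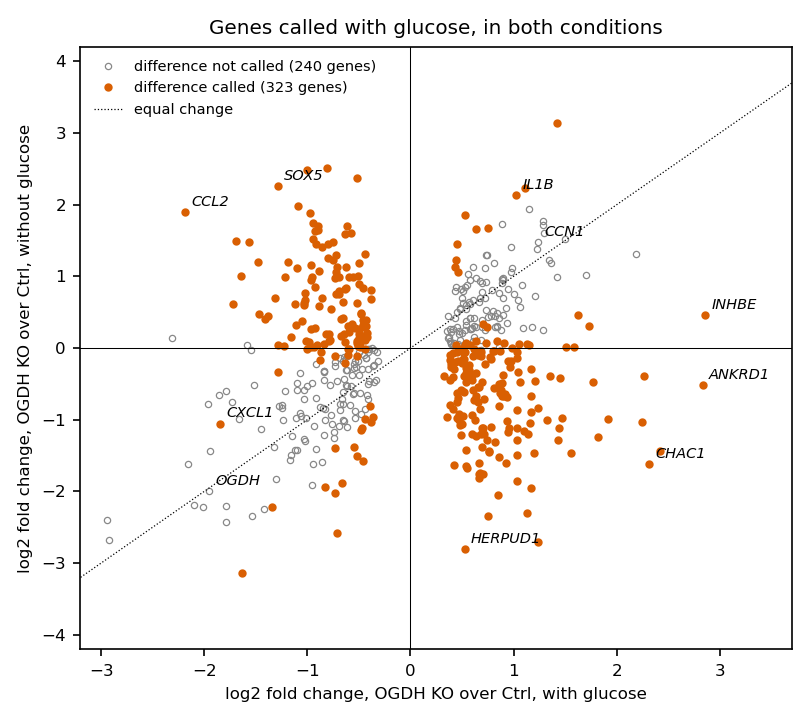
Log2 fold change of OGDH loss with glucose (x axis) and without glucose (y axis) for the 563 genes called with glucose, coloured by whether the difference between the conditions was called. The genes were chosen on the x axis, OGDH lies near the line of equal change, and 323 genes have a called difference.

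The same depletion was measured after 5 h without glucose, in libraries that are not shared with the comparison above, and the difference between both was tested directly. OGDH was lower by the same amount, with a log2 fold change of -1.99 without glucose and a difference of -0.04 ± 0.14 (SE, adjusted p = 0.9, edgeR quasi-likelihood test). Over all 18526 genes the difference was called for 3196 (17.3%). Without glucose 5310 genes (28.7%) were called. The libraries without glucose were uneven, with 4.11% to 14.4% of counts in mitochondrially encoded genes in control and 3.06% to 9.71% in depleted libraries. How far this enters the values without glucose was not tested. Of the 563 genes called with glucose, 323 had a called difference: among the higher genes 169 were less high or turned lower without glucose and 10 were more so, and among the lower genes 128 moved upwards and 16 moved further down. Since the 563 were chosen for a large change with glucose, which enters the difference, a tilt to smaller changes without glucose is built into these counts. In the fit without glucose 191 of the 563 were called in the same direction, 180 in the opposite direction and 192 were not called.

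The direction of change differed between conditions in several lists. Of all tested genes 28.7% were called without glucose and 17.3% had a called difference. Both shares take the 2 directions together, and a split by direction over all genes is not given here. Of the 22 stress response genes 1 was higher and 16 were lower without glucose, with a median of -1.22, and the difference was called for 18, all downwards. CHAC1 had 82.4 ± 31.8 CPM in control cells and 26.7 ± 9.02 CPM in depleted cells without glucose, the reverse of its order with glucose, and the difference was -3.94 (adjusted p = 0.00023, edgeR quasi-likelihood test). INHBE gave 0.46 without glucose and was not called there. Of the 24 YAP and TEAD targets the difference was called for 12 downwards and 2 upwards. ANKRD1 had 145 ± 18.8 CPM in control and 102 ± 15.8 CPM in OGDH-depleted cells without glucose, for a difference of -3.35, whereas CCN1 rose in both conditions (1.24 and 1.48) with a difference of 0.24 that was not called. CCL2 went the other way, with 2.26 ± 0.415 CPM in control and 8.42 ± 0.517 CPM in OGDH-depleted cells without glucose. CXCL1, CXCL2 and CXCL3 were lower in both conditions, and the difference was called for CXCL1 (0.79) and not for CXCL2 (-0.08) or CXCL3 (-0.39). Histone genes had 0 higher and 11 lower members without glucose and 1 called difference among 17. Of the 43 replication genes 15 were higher and 3 lower without glucose, and the difference was called for 21 upwards and 3 downwards. Of the 32 mitotic genes it was called for 26, all upwards, with medians of -0.20 with glucose and 0.95 without. Of the 26 genes of the unfolded protein response it was called for 24, all downwards, with medians of -0.01 and -1.97.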

How the data were processed

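RNA of A375 cells was sequenced in 12 libraries, 3 for each of 4 groups that the titles give. The authors deposited fragment counts per gene name that were not normalized, made with featureCounts 2.0.1 on read pairs over exons, without strand, per the file headers. Fragments with several genomic matches were not counted, so near-identical copies lose counts. The table also gives a deposited length per gene, another quantity that was used only to express levels per kilobase. Subread and hg38 are named in the submitters' processing notes, and the aligner is not given in the sources used here.

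Genes were kept by filterByExpr (minimum count 10, minimum total 15) and scaled by TMM. The kept 18526 gene names held 99.9% of counts and 42683 were not tested. The main test was the quasi-likelihood F-test of edgeR 4.0.16 under R 4.3.3, with 1 mean for each group over all 12 libraries and Benjamini-Hochberg adjustment over all tested genes. The SE is the log2 fold change divided by the root of F. The test was tried on simulated counts. The 42 gene lists and the members described were chosen with earlier results of these data known, and lists are described by counts and medians without a list test. Named are OGDH and the tested 2-oxoacid dehydrogenase genes, the 15 largest changes in each direction among called genes whose groups do not overlap and whose higher mean reaches 5 CPM, the 4 smallest p in each list with 2 or more calls, examples from the other lists, and the 5 largest differences between glucose conditions in each direction. A few genes that this rule names are not reported here. Genes in the closing observations were picked after their values were seen. GC content is that of the longest GENCODE v29 transcript, which 81.9% of tested genes had. Promoters are from a RefSeq table (GRCh38.p14), matched by symbol. Alternatives were DESeq2 1.42.0, upper-quartile scaling, other filters, other sets of libraries, a replicate block, a GC offset and a test against a 1.5-fold change. The GC offset, the removal of 3 outlying libraries and the removal of single libraries without glucose were chosen after seeing the data.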

Additional observations from a re-analysis of the deposited data

Results flagged for a closer look

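Results are listed here because the effect of OGDH loss differed between cells with glucose and cells after 5 h without it, by edgeR's quasi-likelihood test of the difference itself. The difference is the log2 fold change without glucose minus that with glucose, so a negative value means that OGDH loss moved a gene less upwards, or more downwards, without glucose. It was called for 17.3% of all tested genes. Of 178 genes named in the text and tested it was called for 104, 31 upwards and 73 downwards. Many of these were named for their change with glucose, which enters the difference, so the share among them is no result. The libraries Ctrl 3 and OGDH KO 3 without glucose also stood apart from their groups. Without them and control replicate 2 with glucose, the difference was called for 8077 genes, and KRT16 and XIRP1 gave -6.50 and -5.88. In the control libraries without glucose that this fit keeps, mitochondrially encoded genes took 14.4% and 13.2% of counts. The removed control replicate 2 with glucose had 14.6%, and the removed Ctrl 3 without glucose had 4.11%. Library composition and condition can therefore not be told apart in that fit.

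Stress response genes make up the longest group. The differences were -2.40 for INHBE, -3.85 for ADM2, -3.94 for CHAC1, -2.45 for STC2, -3.06 for JDP2, -2.32 for GDF15 and -2.22 for CEBPG. For its other members they were -2.91 for CTH, -3.44 for TRIB3, -1.92 for PPP1R15A, -2.46 for CEBPB, -0.76 for ATF4, -3.17 for DDIT3 and -3.38 for SESN2. Every one of these 14 is negative. DDIT3 stands out because it was not called with glucose and fell by 2.98 on the log2 scale without it. Amino acid genes gave -2.55 for SLC1A4, -2.15 for SLC6A9, -1.55 for SLC7A1, -0.73 for SLC43A1, -1.75 for ASNS, -1.38 for GPT2, -1.27 for MTHFD2 and -0.74 for PSAT1. The transporter SLC1A3, which fell with glucose, gave 1.02. Synthetases of tRNA gave -1.21 for SARS1, -1.53 for WARS1 and -1.12 for AARS1. Genes of the endoplasmic reticulum and of redox control gave -2.22 for XBP1, -3.33 for HERPUD1, -1.19 for CALR, -1.81 for DNAJB11, -1.80 for TXNRD1 and -2.49 for OSGIN1.

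Targets of YAP and TEAD and matrix genes gave -3.35 for ANKRD1, -0.85 for CCN2, -0.79 for DLC1, -1.38 for AJUBA, -0.94 for AXL, -2.05 for F3 and -0.67 for TIMP3. COL4A5 was the member of that group with a positive value, 0.70, since it rose further without glucose. Genes of ERK output and the early factors gave -2.33 for DUSP5, -1.67 for MYC, -0.50 for CCND1, -1.22 for BTG2, -2.07 for KLF4 and -1.96 for KLF2, and the growth factors HBEGF and AREG, which bind the EGF receptor, gave -2.53 and -2.53. Chemokine and NF-kB genes were split, with 4.08 for CCL2, 1.11 for IL1B and 0.79 for CXCL1 on the positive side and -1.46 for IL24 and -0.51 for SOD2 on the negative side.

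Replication genes were mostly positive, with 0.91 for MCM3, 0.82 for MCM4, 1.07 for PCNA, 0.63 for POLA1, 2.21 for E2F8 and 0.50 for GINS2, while CDC6, the helicase loader, gave -0.55. Sterol and fatty acid genes gave -0.65 for INSIG1, -1.11 for STARD4, -1.12 for HMGCS1 and 0.41 for SCD. In the list with OGDH the differences were 0.92 for DHTKD1, 0.51 for DLAT, 0.96 for PDK3, 0.51 for PDP1, 1.06 for LIPT2, 0.69 for LIAS, -0.60 for PDP2 and -0.85 for PPM1K. The dioxygenases gave 0.60 for KDM3A, 1.83 for TET1 and -0.78 for KDM4A. LDHA gave 0.57.

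Of the genes with the largest changes, those that rose with glucose gave -2.91 for S1PR1, -1.42 for RPS6KA2, -1.16 for ANK2, -1.56 for SLC25A25 and -3.02 for NMRAL2P. Those that fell gave 2.34 for SHISA2, 2.68 for EYA1, 3.54 for SOX5, 1.26 for DSC2 and -0.88 for ENSG00000287064. Genes of insulin signalling, survival and autophagy gave -1.23 for IRS2, -1.46 for GRB10, -1.20 for BCL2L1, -0.87 for BCL2, -2.21 for WIPI1, -0.91 for GABARAPL1 and -1.45 for ULK1. SESN1, ERBB3 and CYP1A1, which fell with glucose, gave 0.82, 1.91 and 0.99. Beside CCL2 and SOX5, the largest differences upwards over all genes belonged to DIXDC1, TNFRSF19 and ADORA1, at 3.48, 2.89 and 2.85. With glucose these 3 genes fell by 1.01, 0.51 and 0.97, and TNFRSF19 lost that call when any 1 library other than control replicate 2 was left out (adjusted p up to 0.11). The largest downwards were -7.46 for KRT16, -6.24 for XIRP1, -5.66 for PRR9, -5.56 for HMOX1 and -5.32 for ZNF469. KRT16, XIRP1 and PRR9 had means of at most 0.398 CPM in either group with glucose, so their size rests on near-absent levels there. KRT16 and XIRP1 were no longer called without OGDH-depleted replicate 3 with glucose (-6.40 and -5.63, adjusted p = 0.073 and 0.058, edgeR quasi-likelihood test).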

How the results depend on the processing

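OGDH stayed lower and called under every alternative run, at log2 fold changes of -2.10 to -1.89. The number of genes called with glucose was 563. It was 215 with only the 6 compared libraries in the fit, 1172 with DESeq2, 342 with the replicate block, 28 in the test against a 1.5-fold change, 1454 with the GC offset and 2021 without the 3 libraries farthest from their groups (control replicate 2 with glucose, control and OGDH-depleted replicate 3 without glucose), the last 2 chosen after seeing the data. Leaving out 1 library with glucose gave 172 to 397, and an upper-quartile scaling, no mitochondrially encoded genes, a minimum count of 50 or no filter gave 388 to 634. The number of genes whose difference between conditions was called was 3196, against 8077 without those 3 libraries, 4980 with the GC offset and 2293 to 3319 with 1 library left out. In the fit without those 3 libraries, library composition and condition cannot be told apart, as described above. Same-numbered libraries with glucose deviated from their group means with correlations of 0.0179, 0.192 and 0.103, of which the first is not over 0.1, and the labels pair none, so the numbers were not taken as pairs. For single genes, log2 fold changes near 0 reversed sign. With the GC offset DLD gave 0.0145, MRPS36 0.0442 and DBT 0.0303, and without the 3 libraries DBT gave 0.016. With 1 library left out, DLST ranged from -0.161 to 0.0578, DLD from -0.187 to 0.00624, MRPS36 from -0.294 to 0.00175 and DBT from -0.173 to 0.0265. None of these 4 genes was called. The causes were not tested. At this depth the median SE of 0.21 limits which small changes can be called.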

Other observations

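A few changes outside the lists were read after their values were seen and are given as values. PTMA, which encodes the chromatin protein prothymosin alpha, had 754, 767 and 865 CPM in control and 372, 369 and 424 CPM in OGDH-depleted libraries. The groups lay far apart, with a log2 fold change of -1.04 ± 0.11 (SE, adjusted p = 0.00092, edgeR quasi-likelihood test). Its processed pseudogenes PTMAP2 and PTMAP5 gave -1.03 ± 0.11 and -1.10 ± 0.14, and since they copy the PTMA message, reads of the parent and of the copies cannot be told apart with certainty.

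Some genes of growth factor and insulin signalling were read in the same way. HBEGF, a ligand of the EGF receptor, had 27.2, 24.9 and 27.4 CPM in control and 55.9, 54.1 and 52.5 CPM in OGDH-depleted libraries (1.03 ± 0.09, SE, adjusted p = 0.00021, edgeR quasi-likelihood test). AREG, another ligand of that receptor, rose by 0.93 and lost its call without control replicate 1 or 3 or depleted replicate 2 or 3 (adjusted p up to 0.067). IRS1, an insulin receptor substrate like IRS2, rose from 43.1 ± 7.26 to 89.9 ± 3.64 CPM (1.06 ± 0.15), and GRB10, an adaptor that restrains the insulin receptor, rose by 0.88. The hyaluronan synthases HAS2 and HAS3 each fell by 0.84. HAS3 was called in 1 of the 6 fits that leave out a library, the one without control replicate 2 (adjusted p up to 0.084), and HAS2 lost its call without control replicate 2 or any 1 depleted replicate (adjusted p up to 0.13). Of 2 targets of the aryl hydrocarbon receptor, CYP1A1 fell from 11.6 ± 1.94 to 5.94 ± 0.555 CPM and CYP1B1 rose from 0.639 ± 0.0839 to 1.57 ± 0.402 CPM.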
